A study of Mus musculus with 4 samples.

Results

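The actin, tubulin, annexin and S100 families were examined in cultured mouse hepatocytes as a set of 70 genes out of 22180 named genes on the array. The set was defined by gene symbol, but this choice was made with earlier results of the same arrays known. It holds actins (5 genes), alpha-actinins (4), tropomyosins (4), myosin light chains (11), alpha-, beta- and gamma-tubulins (15), the intermediate filament genes Vim, Krt8, Krt18 and Krt19, annexins (11) and S100a genes (16). It includes 2 pseudogenes, S100a11-ps and Tubb2a-ps2. Each gene was read by 1 or more probe sets that the platform table assigns to that gene alone, 85 probe sets in all, and 11 genes had more than 1.

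The cells were primary hepatocytes from male mice aged 2 months, wild type (WT) or lacking Chrebp (KO, gene Mlxipl), a sugar-responsive transcription factor. Treatment lasted 16 h in serum-free medium, either plain (control) or holding 25 mM fructose. Each of the 4 groups, the control and fructose cells of each genotype, was measured on 1 array, so no value below has a replicate error and no test across replicates can be made. The labels do not give the strain, how the deletion was made, the number of mice behind an array or the time in culture before treatment, and the extraction field calls the RNA liver RNA. No array holds freshly isolated liver, so the arrays can be compared only with each other, and the change from liver to culture itself was not measured.

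Actin filaments, microtubules and intermediate filaments form the cytoskeleton. Annexins bind membrane phospholipids when calcium is present, and S100 proteins are small calcium-binding partners of annexins and other proteins. Hepatocytes placed in culture spread, build actin stress fibres and gradually lose liver functions, and raised cytoskeletal, annexin and S100 transcripts together with vimentin are widely used as signs of this dedifferentiation. Many actin cytoskeleton genes are targets of serum response factor (SRF), which is activated through its actin-sensing cofactors of the MRTF family.

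With fructose, a subset of these genes stood at least 1.5-fold lower in both genotypes, Anxa3, Anxa6, Anxa9, Tpm2, S100a6 and S100a13 among them. Actn1 and Vim stood lower mainly in WT. The detected actin and tubulin genes differed by less than 1.5-fold with fructose as means of their probe sets, although the brighter probe sets of Tuba1a and Tuba8 were lower by more. Of the 43 set genes above background in the WT comparison, 6 differed by at least 2-fold to the lower side with fructose and 0 to the higher side, where 3.01% of all 10814 detected genes were lower and 3.1% higher. They were Tpm2, Anxa3, S100a6, Myl12b, Actn1 and Anxa9; Anxa9 was below background with fructose and can be called only at least 1.67-fold lower, so 5 stood with values raised to the background level, against 2.77% of all genes. In KO the counts were 5 of 41 lower and 0 higher, against 1.18% lower and 1.68% higher of all detected genes, and 4 lower without Anxa9 once values were raised to the background, against 1.07%. In fructose medium, Vim and Anxa3 were at least 2-fold higher in KO than in WT. Counting deposited values below background as they stand adds Tpm2 and S100a6, which makes 4 of 39 higher and 0 lower, against 0.543% and 0.739%; with values raised to the background the count is 2, against 0.449%. In control medium 0 of 42 differed by 2-fold in either direction, against 0.0373% higher and 0.196% lower. These comparisons share arrays and are not independent. The WT fructose array enters the fructose difference in WT, KO against WT in fructose medium, and the difference between the fructose effects of KO and WT.

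A gene counted as above background, or detected, when its log2 level exceeded 4.764, the 95th percentile of olfactory receptor genes, on at least 1 of the arrays compared. Of the 70 genes, 43 passed on at least 1 of the 4 arrays, 34 on all 4, and 27 on none. A gene that passes on only some arrays has to differ between them, so the 34 were also counted alone: 3 of them, Actn1, Anxa3 and Myl12b, were at least 2-fold lower with fructose in WT and 0 higher (backgrounds 2.88% and 2.92%). In KO, 2, Anxa3 and Myl12b, were lower and 0 higher (1.03% and 1.61%). Myl12b is in both fructose counts, but a probe set it shares with Myl12a differed by only -0.19 in WT and -0.10 in KO (log2). Vim and Anxa3 were higher in KO than WT in fructose medium, with 0 lower (0.439% and 0.634%). For KO against WT in control medium (0.0102% higher, 0.163% lower) and for the difference of effects (0.358% and 0.45%), 0 of the 34 reached 2-fold. For a pair whose dimmer array lay below background, the fold was computed from the background level instead and is written "at least". These are bulk values, in which fewer cells of a type and less RNA per cell cannot be told apart.

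**Figure D1:**
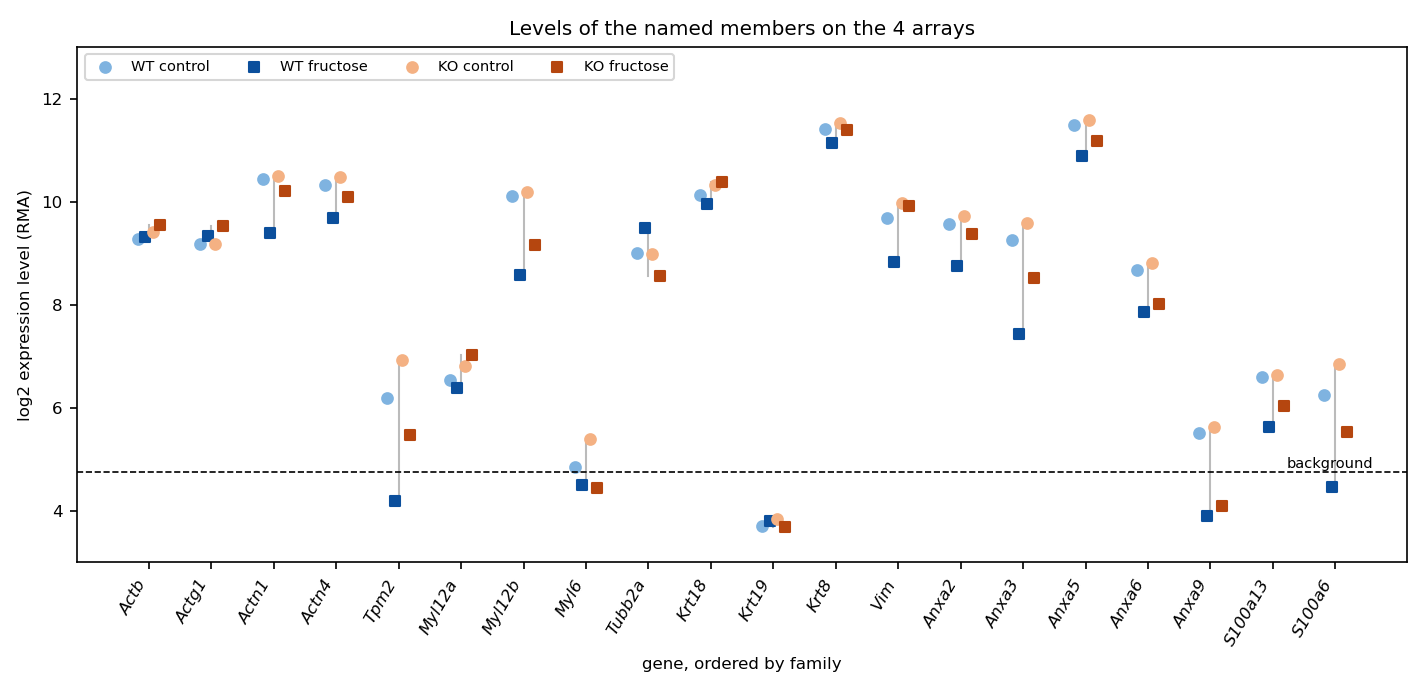
Log2 expression level (RMA) of the 20 members named with all values, on the 4 arrays, ordered by family; each point is 1 array and the dashed line is the background level of 4.764. WT fructose is the lowest point for Tpm2, Actn1, Myl12b, Vim, Anxa3 and S100a6, whereas Actb and Actg1 lie close together on all arrays.

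Promoter sequences are shown for 5 members that span these patterns: Actn4, Anxa2, Tpm2 and Vim, which stood lower in WT fructose, and Actg1, which did not. Each is the 250 bases before the gene start, 5′ to 3′ on the gene's strand, from RefSeq (GRCm38.p6), and capitals mark matches to the motifs searched.
Actg1: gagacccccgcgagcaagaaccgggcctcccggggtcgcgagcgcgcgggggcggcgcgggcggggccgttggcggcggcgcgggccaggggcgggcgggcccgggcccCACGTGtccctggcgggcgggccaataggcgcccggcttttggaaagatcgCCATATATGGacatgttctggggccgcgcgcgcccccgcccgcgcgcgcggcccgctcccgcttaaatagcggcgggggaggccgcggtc
Actn4: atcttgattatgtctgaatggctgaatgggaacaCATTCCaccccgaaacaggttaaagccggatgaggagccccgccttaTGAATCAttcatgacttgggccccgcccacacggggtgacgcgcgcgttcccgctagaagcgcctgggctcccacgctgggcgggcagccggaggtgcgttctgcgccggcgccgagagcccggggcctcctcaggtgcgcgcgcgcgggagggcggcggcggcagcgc
Anxa2: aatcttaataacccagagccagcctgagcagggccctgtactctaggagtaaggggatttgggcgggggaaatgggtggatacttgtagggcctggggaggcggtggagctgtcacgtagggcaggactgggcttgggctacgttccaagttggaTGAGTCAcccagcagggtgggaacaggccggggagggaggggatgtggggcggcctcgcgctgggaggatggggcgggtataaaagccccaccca
Tpm2: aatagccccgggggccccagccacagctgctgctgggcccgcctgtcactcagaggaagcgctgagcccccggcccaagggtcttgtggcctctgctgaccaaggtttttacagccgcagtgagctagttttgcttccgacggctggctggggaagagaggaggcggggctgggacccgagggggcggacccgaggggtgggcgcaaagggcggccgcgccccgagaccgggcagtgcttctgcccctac
Vim: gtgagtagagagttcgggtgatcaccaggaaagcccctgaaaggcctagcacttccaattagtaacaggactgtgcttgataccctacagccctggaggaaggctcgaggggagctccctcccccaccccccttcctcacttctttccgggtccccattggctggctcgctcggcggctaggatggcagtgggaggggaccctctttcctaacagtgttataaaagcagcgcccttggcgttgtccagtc
They lie at chr11:120348496-120348745, minus strand; chr7:28962333-28962582, minus strand; chr9:69453433-69453682, plus strand; chr4:43523555-43523804, minus strand; and chr2:13574061-13574310, plus strand. The motifs were the CArG box bound by SRF, GGAATG bound by TEAD factors, TGANTCA, and CACGTG, the E-box that is repeated in ChREBP elements. TGANTCA is a loose pattern for AP-1 sites that allows any middle base. Each motif was searched on both strands in a window from 250 bases before to 50 after the start. No match overlapped another in promoters of detected members. A match describes letters only and does not show binding.

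The CArG box was present in 5 of the 44 promoters of the 34 detected members that could be matched (11.4%), those of Acta1, Actg1, Anxa5, Myl6 and Myl9, against 1.63% of all 32851 promoters. Among the 10 matched members at least 1.5-fold lower with fructose in WT, it was in 1 of 11 promoters, that of Anxa5. GGAATG was in 18.2% of detected members' promoters against 14.7% of all, TGANTCA in 11.4% against 7.81%, and CACGTG in 13.6% against 7.15%. In the lines above, Actg1 has CACGTG and a CArG box, Actn4 has GGAATG read on the other strand and a TGANTCA match, and Anxa2 has a TGANTCA match. Tpm2 and Vim have none of the 4 in this window.

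The actins themselves, the monomers of microfilaments, differed by less than 1.5-fold in every comparison. Actb, the beta-actin of non-muscle cells, had log2 levels of 9.28 without and 9.31 with fructose in WT, and 9.41 and 9.55 in KO. Actg1, the gamma-actin of non-muscle cells, had 9.19, 9.32, 9.17 and 9.52 in the same order, as the mean of 6 probe sets, of which numbers 2 and 3 by brightness had identical values. Both were thus highest in KO fructose, by log2 differences of 0.25 and 0.19 over WT fructose. Acta2, the smooth muscle actin also made by activated stellate cells, was close to background at 5.26 to 5.54. Acta1, of skeletal muscle, was above background only on the control arrays (4.92 and 5.23), and Actg2, of enteric smooth muscle, on none.

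Alpha-actinins, which cross-link actin filaments and anchor them at adhesions, stood lower in WT fructose. Actn1 had log2 levels of 10.44 without and 9.40 with fructose in WT, and 10.50 and 10.20 in KO. WT fructose was the low array, 2.06-fold below WT control, while KO fructose was 1.23-fold below KO control. The fructose differences of Actn1 were thus -1.04 in WT and -0.30 in KO (log2), which differ by 0.74. Actn4, the other non-muscle alpha-actinin, had levels of 10.33, 9.68, 10.48 and 10.09, 1.57-fold lower with fructose in WT and 1.31-fold lower in KO. The muscle genes Actn2 and Actn3 were below background on all 4 arrays.

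Tropomyosins, which lie along actin filaments and set which proteins can bind them, differed among themselves. Tpm2 had log2 levels of 6.19 without and 4.19 with fructose in WT, and 6.92 and 5.47 in KO. It was below background in WT fructose and highest in KO control. It was at least 2.68-fold lower with fructose in WT and 2.74-fold lower in KO, and 1.67-fold higher in KO than in WT in control medium, the largest such difference of the set. In fructose medium it was at least 1.63-fold higher in KO. Tpm4, by contrast, had levels of 9.09, 9.10, 9.14 and 9.16. Tpm1 ranged from 7.46 in WT fructose to 7.95 in KO control, and Tpm3, the mean of 2 probe sets, from 6.19 in WT fructose to 6.63 in KO control.

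Regulatory and essential myosin light chains tune the non-muscle myosin motor that pulls on actin. Myl12b, a regulatory light chain of non-muscle myosin, had log2 levels of 10.11 without and 8.58 with fructose in WT, and 10.19 and 9.15 in KO. Both fructose arrays were low, 2.88-fold in WT and 2.05-fold in KO. The related and neighbouring gene Myl12a had levels of 6.54, 6.38, 6.82 and 7.02, but its 2 probe sets disagreed: the brighter differed by -0.64 with fructose in WT and the dimmer by 0.30. A further probe set, assigned to both Myl12a and Myl12b and outside the counts, had levels of 8.91, 8.72, 8.95 and 8.84, a fructose difference of -0.19 in WT. The low Myl12b values were therefore not seen on the probe set it shares with Myl12a, and the size of its difference is uncertain.

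Other light chains were dim. Myl6, the essential light chain of non-muscle myosin, was read by 1 single-gene probe set near background, with log2 levels of 4.85 without and 4.51 with fructose in WT, and 5.39 and 4.45 in KO. It was above background on the control arrays only, at least 1.54-fold lower with fructose in KO and at least 1.06-fold lower in WT. Myl9, the smooth muscle regulatory chain, lay between 4.84 in WT fructose and 5.32 in KO control. The cardiac and skeletal chains Myl1 and Myl2 crossed the background level by little, with highest levels of 4.78 and 4.85, and Myl3, Myl4, Myl6b, Myl7 and Myl10 were below it on all arrays.

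**Figure D2:**
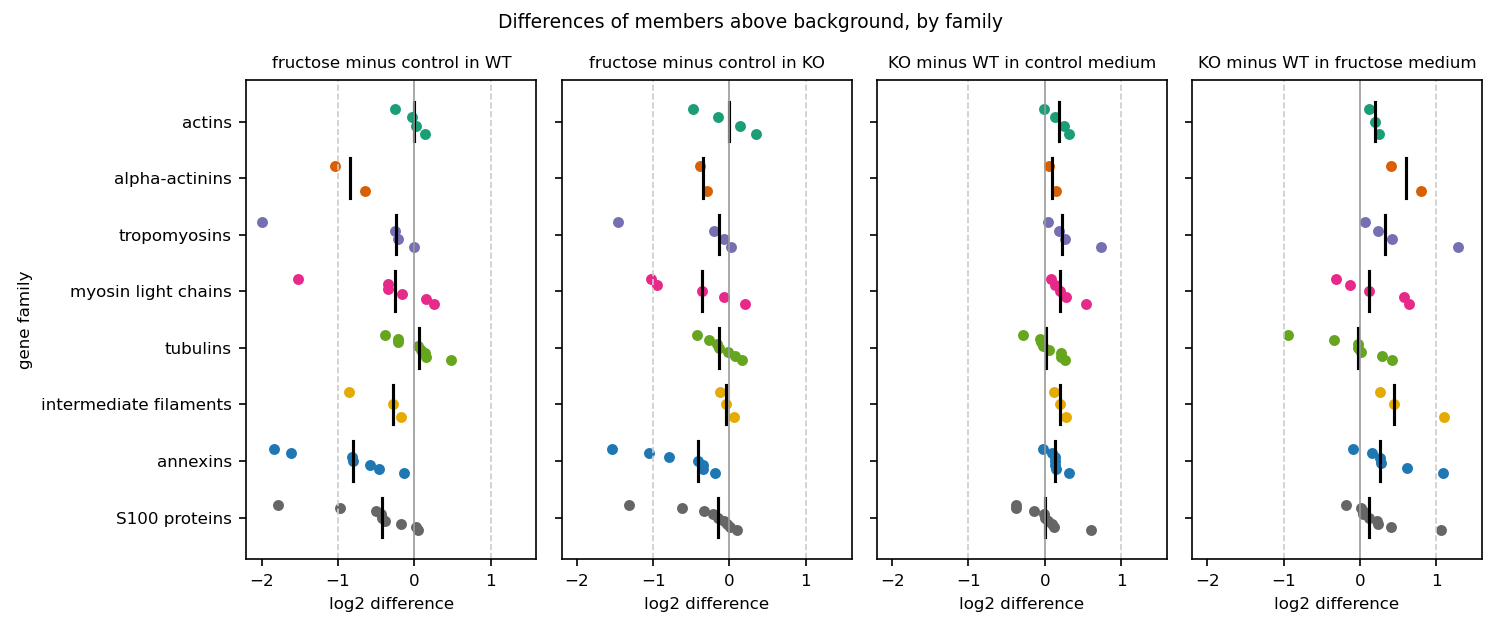
Log2 differences of the members above background in 4 comparisons, 1 panel each, by gene family; each point is 1 gene, the black bar is the family median and dashed lines mark 2-fold. Annexins lie below 0 in both fructose comparisons, with medians of -0.81 in WT and -0.41 in KO, while tubulins centre near 0 in WT (median 0.06).

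Among intermediate filaments, vimentin differed most between genotypes in its fructose response. Vim, the vimentin gene of mesenchymal and dedifferentiating cells, had log2 levels of 9.68 without and 8.83 with fructose in WT, and 9.96 and 9.92 in KO. Only WT fructose was low: Vim was 1.81-fold lower with fructose in WT and 1.03-fold lower in KO. The fructose differences, -0.86 and -0.04, differed by 0.82, the largest positive difference of effects in the set. Both Vim probe sets showed it, with -0.74 and -0.98 in WT and 0.00 and -0.09 in KO. In fructose medium Vim was 2.14-fold higher in KO than in WT.

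The hepatocyte keratins kept high levels throughout. Krt8 had log2 levels of 11.41 without and 11.13 with fructose in WT, and 11.53 and 11.40 in KO, and its partner Krt18 had 10.13, 9.95, 10.33 and 10.39. Both were lowest in WT fructose, and Krt18 was 1.36-fold and Krt8 1.20-fold higher in KO in that medium. The Krt18 value rested on the dimmer of its 2 probe sets, where the difference was 0.75, against 0.13 on the brighter. Krt19, a keratin of bile duct and progenitor cells, was below background on all arrays (3.68 to 3.83).

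Tubulins, the subunits of microtubules, showed no common direction. As means of their probe sets, 5 of the 8 detected in the WT comparison were above and 3 below 0 with fructose, and in KO 2 of 7 were above and 5 below, with 0 at 1.5-fold in either. Tubb2a, a beta-tubulin, had log2 levels of 9.01 without and 9.49 with fructose in WT, and 8.99 and 8.56 in KO. It was 1.40-fold higher with fructose in WT and 1.35-fold lower in KO, so that in fructose medium it was 1.91-fold lower in KO. Tubb2a was the only set gene at least 1.5-fold lower in KO in that medium (background 2.86%). Its fructose differences of 0.49 and -0.43 ran in opposite directions.

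The other abundant tubulins moved less. Tubb6 lay between 10.39 and 10.49, Tubb5 between 9.55 in WT fructose and 9.99 in KO control, and Tubg1, the gamma-tubulin that nucleates microtubules, between 7.86 in WT control and 8.24 in KO fructose. Tuba1c had 6.95 without and 6.73 with fructose in WT, Tubb4b between 5.08 and 5.42 and Tubb2b between 4.88 and 5.14. Tuba1a was above background in WT control only as the mean of 2 probe sets; its brighter probe set was above it on both control arrays, at 5.70 in WT and 5.07 in KO, and differed by -0.97 and -0.41 with fructose, to levels below background. Tuba1b, Tuba8, Tubb1, Tubb2a-ps2, Tubb3, Tubb4a and Tubg2 were below it on all arrays. For Tuba8 that mean hid a brighter probe set, with levels of 5.69, 4.86, 5.64 and 4.69, low on the fructose arrays of WT and, below background, of KO. The abundant tubulins of hepatocytes are covered in part, since Tuba4a is read only by a probe set shared with Stk16, and the 1 probe set assigned to Tuba1b alone was below background.

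The annexins were the family with the most members at least 1.5-fold lower with fructose. All 7 detected annexins were below 0 in both WT and KO, against 52.5% of all detected genes in WT and 50.6% in KO. At least 1.5-fold lower were 5 of 7 in WT and 3 of 7 in KO, where the backgrounds are 10.8% and 5.75%. Of the whole set, 12 genes were at least 1.5-fold lower in WT and 8 in KO, with 0 higher in either (backgrounds 9.46% and 6.11%). Anxa3 had log2 levels of 9.26 without and 7.43 with fructose in WT, and 9.58 and 8.52 in KO. The fructose arrays were low in both genotypes, 3.57-fold in WT and 2.08-fold in KO, and WT fructose was the lower of the pair, with Anxa3 2.14-fold higher in KO there. Anxa9 had levels of 5.50, 3.89, 5.63 and 4.09, below background on both fructose arrays, at least 1.67-fold lower in WT and at least 1.83-fold in KO. With both fructose arrays below background, the 2 effects cannot be compared in size.

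Anxa2, Anxa4, Anxa5, Anxa6 and Anxa7 had smaller fructose differences than Anxa3 in both genotypes. Anxa2, which pairs with S100a10 at the plasma membrane, had log2 levels of 9.56 without and 8.75 with fructose in WT, and 9.71 and 9.37 in KO. It was 1.75-fold lower with fructose in WT, 1.27-fold lower in KO and 1.53-fold higher in KO than in WT in fructose medium. Anxa6 had 8.67, 7.85, 8.81 and 8.01, and was lower by a like amount in both genotypes, 1.77-fold in WT and 1.73-fold in KO. Anxa5, the phosphatidylserine-binding annexin, had 11.48, 10.89, 11.58 and 11.17, lower with fructose by log2 differences of -0.59 in WT and -0.41 in KO. Anxa4 differed by -0.47 and -0.35, and Anxa7 by -0.13 and -0.19. Anxa1, Anxa8, Anxa10 and Anxa13 were below background on all arrays, and Anxa11 is read only by probe sets shared with predicted genes.

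**Figure D3:**
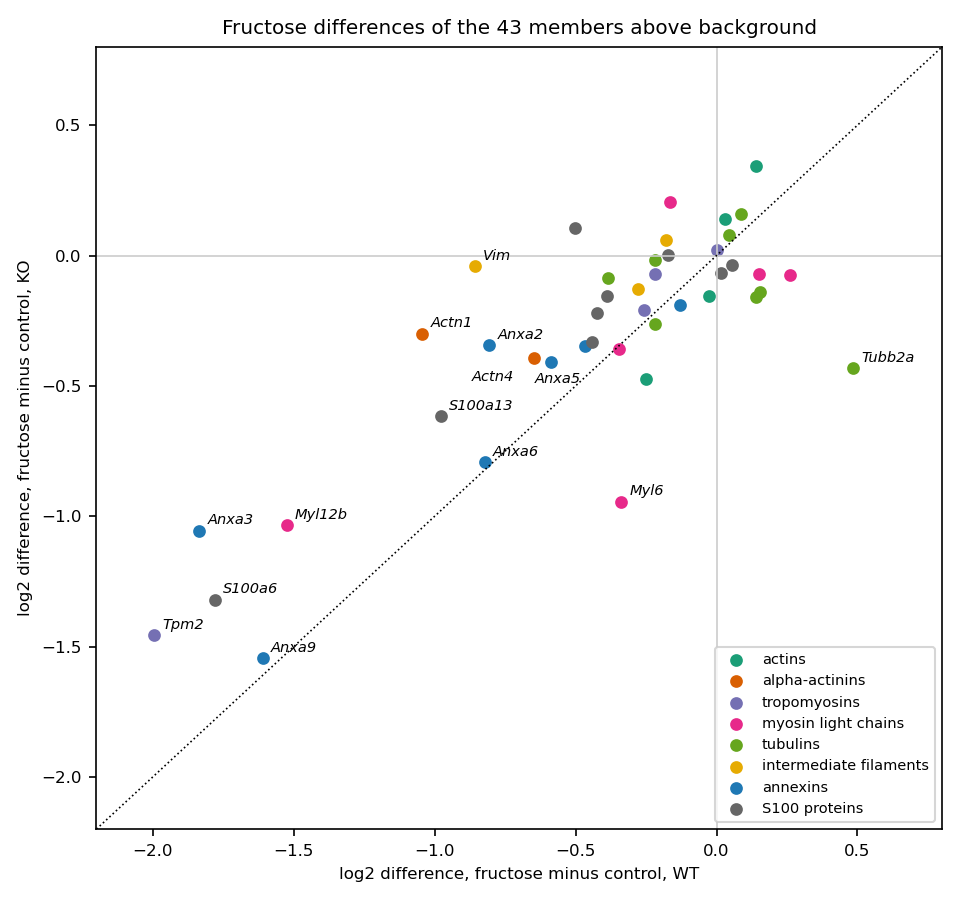
Log2 difference of fructose minus control in WT (horizontal) against KO (vertical) for the 43 members above background on at least 1 array, coloured by family; the dotted line marks equal differences, and levels below background are drawn as deposited. Tpm2, S100a6, Anxa3, Anxa9 and Myl12b are low on both axes, Vim and Actn1 are low mainly in WT, and Tubb2a has opposite signs.

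Of the S100 genes, S100a6 and S100a13 differed most. S100a6, or calcyclin, had log2 levels of 6.25 without and 4.47 with fructose in WT, and 6.85 and 5.53 in KO. It was below background only in WT fructose and highest in KO control, the same order of arrays as Tpm2. It was at least 2.80-fold lower with fructose in WT, 2.50-fold lower in KO, and 1.52-fold higher in KO in control medium. S100a13, which takes part in export of growth factors, had 6.60, 5.62, 6.64 and 6.03, 1.97-fold lower with fructose in WT and 1.53-fold in KO.

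The most abundant S100 genes were less variable. S100a10, the partner of Anxa2, lay between 10.68 and 10.85. S100a11 was highest in WT control (11.35) and lowest in KO fructose (10.75), and was lower in KO in both media, by log2 differences of -0.38 and -0.18, against the direction of most of the set. S100a1 was lower with fructose by -0.44 in WT and -0.33 in KO. S100a16 differed by -0.39 and -0.15, S100a14 by 0.02 and -0.07, and the pseudogene S100a11-ps by 0.06 and -0.03. S100a3 crossed background, at 5.16 without and 4.65 with fructose in WT, and at 4.78 and 4.89 in KO.

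The S100 genes that mark other cells were not detected. S100a8 and S100a9, the calprotectin genes of neutrophils and monocytes, had highest log2 levels of 2.96 and 4.09, and S100a4, of fibroblasts and leukocytes, 4.02. S100a2, S100a5, S100a7a and S100a7l2 were also below background. In the order of protein-coding genes in RefSeq, S100a6 sits between S100a5 and S100a7a, neither of which was detected, so its direct neighbours gave no such values.

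Within the set, the fructose difference was lower in WT than in KO for 29 of the 41 genes detected in both comparisons (70.7%), against 55.9% of all 10516 genes detected in both. With values raised to the background this was 27 of 41 (65.9%, against 55.6%). The 12 genes at least 1.5-fold lower with fructose in WT were chosen for a low WT value, so their smaller differences in KO are no result: with raised values 10 of 12 were smaller in KO, all but Anxa9 and Tpm2, as were 1004 of 1104 among all genes. Among the 12, 7 were also at least 1.5-fold lower in KO, and Actn1, Actn4, Vim, Anxa2 and Anxa5 were not. The difference of effects exceeded 1.5-fold for Vim, Anxa3 (0.78) and Actn1 in one direction and for Tubb2a (-0.92) in the other, all above background on every array. Deposited values below background add S100a3 and Myl6, which makes 4 and 2 genes (backgrounds 2.86% and 2.6%), but raised to the background these 2 differed by 0.50 and -0.54, under 1.5-fold. At 2-fold it was 0 in both directions (backgrounds 0.443% and 0.588%). With 1 array per group, none of these differences between genotypes could be tested.

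Without fructose, KO cells had slightly higher levels of most of the set. Of 42 detected genes, 32 were above 0, with a median of 0.13, where 48.0% of all 10720 detected genes were above 0 and their median was -0.01. At 1.5-fold, Tpm2 and S100a6 were higher and 0 were lower (backgrounds 0.476% and 1.1%). In fructose medium 31 of 39 were above 0, against 52.5% of all detected genes, and the median was 0.23 against 0.01 for all genes. That median was 0.038 when genes below background were kept. At least 1.5-fold higher in KO there were 7 (background 2.45%): Tpm2, Vim, Anxa3, S100a6, Actn1 (1.74-fold), Myl12a (1.57-fold) and Anxa2. The fructose medians were -0.26 in WT and -0.19 in KO, against -0.03 and 0.00 for all detected genes. WT fructose was the lowest of the 4 arrays for 28 of 43 set genes, against 35.9% of all detected genes.

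**Figure D4:**
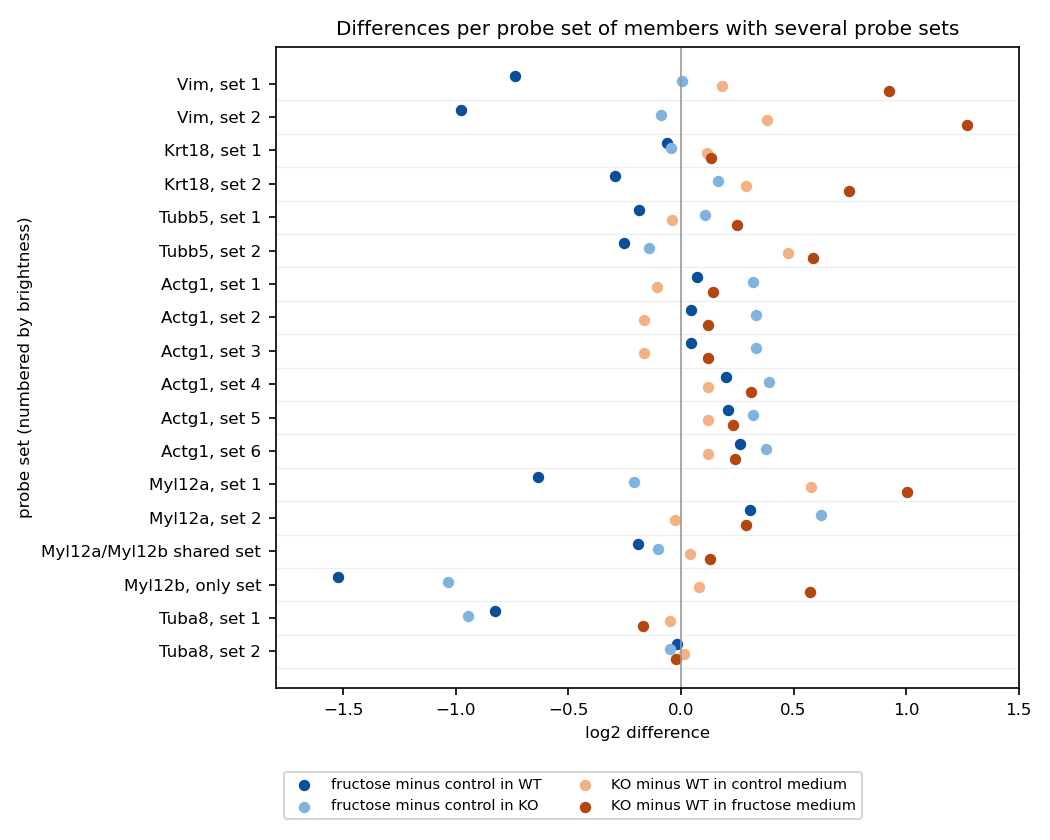
Log2 differences in 4 comparisons for each probe set of 5 members with several probe sets and of Tuba8, with Myl12b and the probe set it shares with Myl12a; each row is 1 probe set, numbered from the brightest. The 2 Vim probe sets lie close together, whereas the Myl12a, Myl12b and shared probe sets differ in the size and, for Myl12a, the sign of their fructose differences.

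Genes that work with these families were read from lists chosen by known function. Of 28 detected actin-binding and SRF-MRTF target genes, 7 were at least 1.5-fold lower with fructose in WT and 2 of 27 in KO, with 0 higher in either, and 6 of 27 were higher in KO in fructose medium (median 0.24). The shares over all detected genes were 10.8%, 5.75% and 2.45% for these 3 counts, and the KO count lies near its share. With fructose, 6 of the list were above and 22 below 0 in WT, and 11 above and 16 below in KO. Of all detected genes, 52.5% and 50.6% were below 0. Srf itself, named after its values were seen, was above 0 in both genotypes, by 0.23 in WT and 0.35 in KO (log2). Cnn2, a calponin, was at least 2.45-fold lower with fructose in WT and 2.35-fold in KO, and Cnn3 1.90-fold and 1.29-fold lower. Tmsb4x, which holds actin monomers, and Ccn2, a matricellular SRF and YAP target, were 1.90-fold and 1.84-fold higher in KO in fructose medium. Of 19 detected tubulin folding and microtubule genes, 1, the tubulin cofactor Tbcd, was at least 1.5-fold lower in WT (1.98-fold) and in KO (1.79-fold), no more than the 10.8% and 5.75% of all genes. Ttc5, which takes part in tubulin mRNA decay, was 1.44-fold and 1.24-fold lower, Tube1, epsilon-tubulin, 1.20-fold higher in WT and at least 1.42-fold in KO, and Stmn1, stathmin, at least 1.03-fold higher in WT and 1.21-fold lower in KO.

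Partners of annexins and S100 proteins, and other filament genes, went both ways. Ahnak, a large scaffold bound by Anxa2 and S100a10, was 1.55-fold lower with fructose in WT and 1.06-fold lower in KO, and Ahnak2 at least 1.84-fold and at least 1.82-fold lower. Plat, tissue plasminogen activator, was 2.47-fold higher in WT and 1.54-fold in KO, and Capn2, a calpain, 1.38-fold and 1.12-fold lower. Of 10 annexin and S100 partners with a value 7 were detected, of which 2 were at least 1.5-fold lower and 1 higher with fructose in WT (all genes 10.8% and 9.46%). Jup, plakoglobin of desmosomes, was 3.14-fold lower in WT and 1.58-fold in KO, Krt23 was 2.20-fold and 1.49-fold higher, and Lmnb1, a nuclear lamin, was 1.86-fold higher in KO in fructose medium. Krt20 was above background in KO control only.

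Other genes used as signs of dedifferentiation did not share 1 direction. Of 18 detected dedifferentiation and epithelial-mesenchymal genes outside the set, 9 were above and 9 below 0 with fructose in WT (median -0.07), with 2 at least 1.5-fold higher and 3 lower, near the 9.46% and 10.8% of all genes. Snai2, a transcription factor of epithelial-mesenchymal transition, was 3.42-fold higher in WT and 2.63-fold in KO. Sox4 was at least 1.89-fold lower in WT and 1.01-fold lower in KO, and Cdh2, N-cadherin, 1.83-fold and 1.34-fold lower. Lgals1, galectin-1, was 1.66-fold lower in WT and 1.80-fold in KO. In fructose medium 3 of the 18 were at least 1.5-fold higher in KO than in WT and 1 was lower, against 2.45% and 2.86% of all genes. The higher genes were Plaur (1.77-fold), Cd44 (1.64-fold) and Sox4 (at least 1.67-fold), and the lower gene was Snai2 (1.58-fold). Plaur and Cd44 were named after their values were seen. Of 19 detected genes of hepatocyte function, 7 were at least 1.5-fold higher and 1 lower with fructose in WT, and 6 were higher and 0 lower in KO, against 9.46% and 10.8% of all genes in WT and 6.11% and 5.75% in KO. The lower gene was Hnf4a, a hepatocyte transcription factor named here after its value was seen, 1.68-fold lower in WT and 1.42-fold in KO. Tat was 4.65-fold and 4.02-fold higher, Pck1 1.91-fold and 3.05-fold, Cps1 2.65-fold and 2.63-fold and Slc10a1 2.19-fold and 2.43-fold. These lists were chosen with earlier results of the same arrays known.

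Markers of other cells were set beside the values of Vim, Acta2, Myl9 and the annexins, which such cells also express. Hepatocyte markers, 8 of 8 detected, had mean log2 levels of 10.72 to 11.03 on the arrays. Of 12 stellate and fibroblast markers, 9 were below background, Col1a2, Col3a1, Pdgfra, Pdgfrb, Lrat and Des among them, and the list's mean level was 4.14 to 4.22. Macrophage markers, 10 of 12 detected, had mean levels of 6.21 without and 6.14 with fructose in WT, and 5.71 and 5.67 in KO. In fructose medium 9 of the 10 were lower in KO and 1, Cd68, was higher. Cd68 had levels of 11.04 without and 10.79 with fructose in WT, and 11.12 and 11.22 in KO, lowest in WT fructose as Vim was. Endothelial markers, 8 of 12 detected, had mean levels of 5.57, 5.43, 5.28 and 5.21. Neutrophil markers were below background in 10 of 10, and 5 of 7 bile duct, 5 of 6 mesothelial and 6 of 8 striated muscle markers were too. The 2 detected bile duct markers were bright. Sox9 had levels of 9.82 without and 10.30 with fructose in WT, and 9.39 and 10.21 in KO. Cldn3 had 10.97, 10.07, 10.84 and 10.68 in the same order. What these cells contribute to the set's values was not tested.

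The arrays were alike in overall distribution, with 10368 to 10447 genes above background on each. RMA, used to process the values, makes array distributions alike, so these numbers do not measure how alike the samples were. Mlxipl, the targeted gene, was lower in KO by 1.58-fold without and 2.09-fold with fructose but was still above background there. Which exons were removed is not given in the labels, so this checks the genotype only in part.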

How the data were processed

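Per the labels, biotin-labelled product of 400 ng total RNA per sample went onto whole-transcript arrays of 1 colour. The authors deposited 4 columns of log2 values, 1 per array, made with RMA (robust multi-array averaging) and R 3.4.0, per the submitters' processing notes. RMA makes array distributions alike, so a shift of all genes cannot be seen. For the annotation, a version or build was not given in the sources used.

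Of 41345 probe sets, 23521 have 1 gene in the platform table and 1814 several. Names were updated by Entrez number through a RefSeq table of GRCm38.p6 (23328 matched). Probe sets were averaged per gene in log2 (22180 genes), with Python 3.11.15, numpy 2.4.6 and pandas 2.3.3. Background was taken from 1105 olfactory receptor genes. Differences were formed for 5 comparisons; genes were counted by size, with no p-value. The precision is limited by the number of arrays. Promoters from RefSeq matched 55 of 70 members. Members named with all values differ by at least 1.5-fold in a comparison while above background, plus Actb, Actg1, Vim, Krt8, Krt18 and Krt19; from each list the 4 genes with the largest difference were named. Members, lists and rules were chosen with earlier results of these data known. Alternatives were 2 scalings, 3 treatments of dim genes, the brightest probe set, another fold threshold, the mean, and leaving out 1 member. Raising values to the background for single members and for counts at 1.5-fold, and keeping only members above background on all arrays, were added after seeing the data. The calculation of differences was tested on simulated data.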

Additional observations from a re-analysis of the deposited data

Results flagged for a closer look

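The fructose differences of 2 detected members, taken from the deposited values, had opposite signs in WT and KO and differed by at least 1.5-fold. For Tubb2a the effect in KO minus that in WT was -0.92 (log2), with 0.49 in WT and -0.43 in KO. For S100a3 it was 0.61, with -0.50 in WT and 0.10 in KO, but its WT fructose level was below background. Raised to the background, the S100a3 difference was 0.50, under 1.5-fold. With 1 array per group the difference was not tested for either gene.

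Probe sets that the platform table assigns to several genes were outside the counts, and 5 of the 10 that include a member were above background on all arrays. The probe set of Tuba4a and Stk16 had a log2 level of 10.74 in WT control and a fructose difference of -0.15 in WT. The probe set of Myl12a and Myl12b had a level of 8.91 in WT control. The Anxa11 probe sets, which also match Gm2274 and Gm2260, had levels of 9.86 (2 sets with identical values) and 8.46 in WT control, with fructose differences of -0.06 and -0.09 in WT.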

How the results depend on the processing

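The counts at 2-fold moved most with the threshold and with dim genes. At 1.5-fold, 12 members were lower with fructose in WT and 8 in KO, 2 were higher in KO in control medium, 7 higher and 1 lower in KO in fructose medium, and the difference of effects gave 4 higher and 2 lower. Restricted to the 34 members above background on all 4 arrays, a choice made after seeing the data, 3 were lower with fructose in WT, 2 in KO, and 2 higher in KO in fructose medium. That last count was also 2 with the stricter dim filter and with values raised to the background, where the fructose counts were 5 in WT and 4 in KO and the difference of effects gave 3 higher and 1 lower at 1.5-fold. The median of KO minus WT in fructose medium was 0.038 with no dim filter. Means in place of medians were -0.43 for fructose in WT and -0.32 in KO. Median centring, repeated quantile normalization, the brightest probe set and leaving out the most different member kept every count within 1.5 times and every median within 0.1. Of 100 values of named members, 11 moved by over 0.1 with the brightest probe set, 17 with values raised to the background, and 0 with either scaling. No paired analysis was possible because each group has 1 array and the replicate numbers only name the arrays, and no array could be left out.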
